A study of Mus musculus with 11 samples.

Results

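Triglyceride synthesis in the liver was examined through 10 named genes, Gpam, Agpat2, Agpat3, Lpin1, Lpin2, Lpin3, Dgat1, Dgat2, Mogat1 and Pnpla3, out of 36788 gene identifiers in the table. The genes were taken by symbol, and all 10 were found and passed the filter on low values. The libraries were made from livers of females older than 12 weeks, which the labels give as wild-type C57BL/6, whereas the study's methods describe its mice as being on a mixed background that includes C57BL/6J. All of the mice had been ovariectomized (OVX) and fed a high-fat diet. The FSH group (n = 5, mice 1, 2, 3, 4 and 6) then received follicle-stimulating hormone, the pituitary hormone best known for its action on the ovary, and the saline group (n = 6, mice 1 to 6) received saline. The comparison asks whether FSH given after the loss of the ovaries alters liver transcripts. Neither ovary-intact mice nor mice on a standard diet are among the libraries, so every value below refers to the OVX, high-fat-fed state.

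Most liver triglyceride is built on glycerol 3-phosphate. A GPAT enzyme adds the first fatty acyl chain, an AGPAT enzyme adds the next to give phosphatidate, a lipin removes the phosphate to give diacylglycerol, and a DGAT enzyme adds the last acyl chain. Mogat1 enters the route from monoacylglycerol, and Pnpla3 encodes a lipid droplet protein that acts on stored glycerolipids. Phosphatidate and diacylglycerol are also drawn off into phospholipids. SREBP-1c, made from Srebf1, is the insulin-responsive activator of fatty acid and triglyceride synthesis genes in hepatocytes, and lipin 1 is known to respond to fasting and to glucocorticoids.

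The libraries held 11410596 to 19909327 reads in the FSH group and 10801891 to 16077442 in the saline group. The hepatocyte markers summed to 107127 to 126167 CPM (a gene's reads per 1000000 reads of the library) with FSH and 102579 to 130919 with saline, and of these 10 genes Hnf4a (log2 difference -0.44, adjusted p = 0.0369, limma) and Fgb (-0.38, adjusted p = 0.0289) passed the test as lower. Adipocyte markers summed to 2.06 to 3.16 against 1.33 to 4.72 CPM, with Lep and Retn at 0 reads in every library. Macrophage markers were lower in the mean of the FSH group for 8 of 8 genes, of which 1, Cd68, passed the test, and their sums ranged from 111 to 304 CPM with FSH and from 182 to 360.3 CPM with saline. Of all 12733 genes tested, 5860 were lower in the mean of the FSH group and 10.6% passed the test in either direction. The part of these markers in the results below was not tested. In a whole-liver library, fewer cells of a type and less RNA per cell cannot be told apart.

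None of the 10 genes passed an adjusted p of 0.05 (limma on log2(CPM + 0.5), adjusted over 12733 genes), where 10.6% of all genes tested did and 1.83% also differed by over 1 on the log2 scale. The count was also 0 with voom and with edgeR's quasi-likelihood test on the recovered reads. It was 2 with array weights (Agpat2 and Pnpla3), 1 with a replicate block (Pnpla3) and 0 to 2 when each library was left out. At an unadjusted limma p under 0.05 there were 4 of 10, Gpam, Lpin3 and Pnpla3 higher with FSH and Agpat2 lower, against 25.1% of all genes. The median log2 difference, FSH minus saline, was -0.075 over the 10 genes and 0.024 over all genes tested. The members fell into contrasting kinds. Pnpla3, Gpam and Lpin1 had group differences near or over 1 on the log2 scale and a wide spread between livers of the same group. Dgat2, Dgat1, Agpat2 and Agpat3 differed little between groups and varied little within them.

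**Figure D1:**
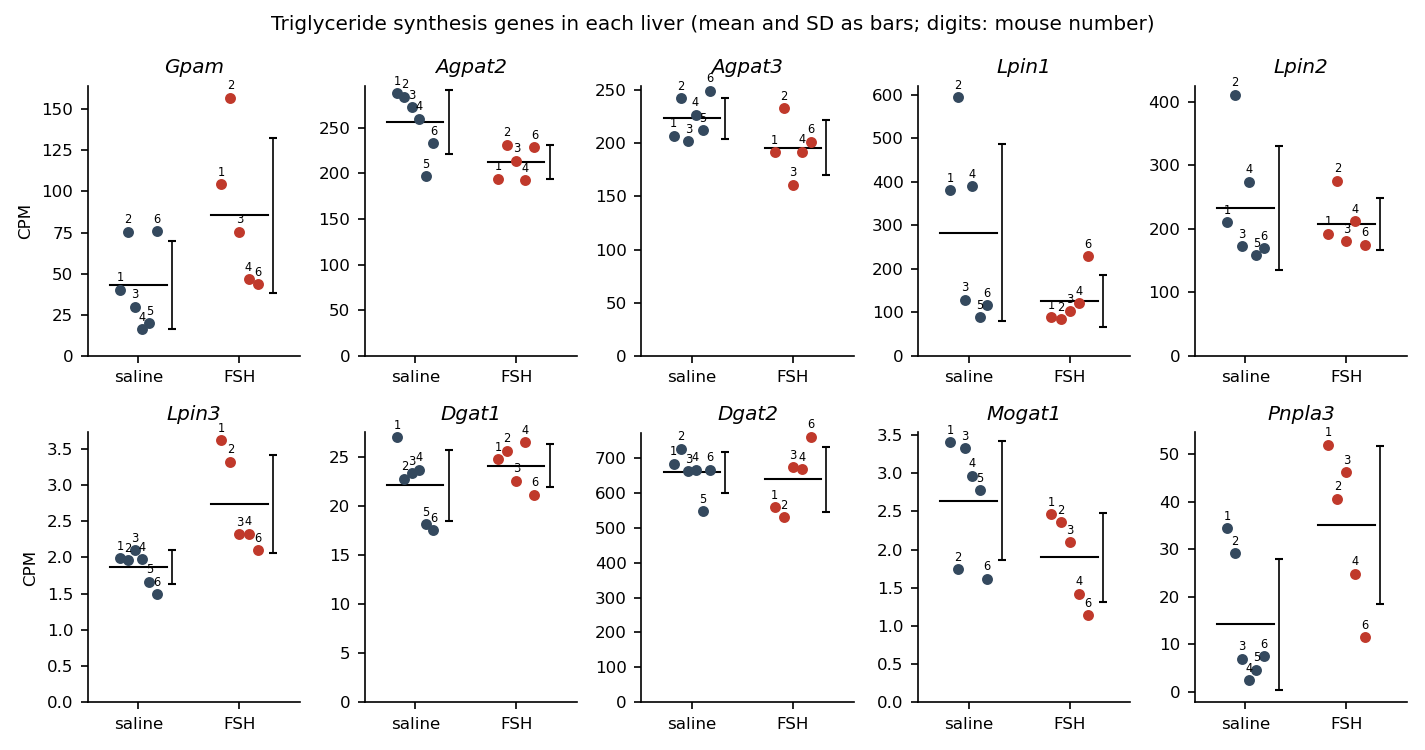
Each panel plots 1 gene in CPM (linear axis) for the 6 saline livers (dark) and 5 FSH livers (red), with the mouse number beside each point, the group mean as a horizontal line and the SD as a vertical bar. The groups overlap in every panel except Lpin3. By the ratio of the highest to the lowest value within a group, Pnpla3, Gpam and Lpin1 scatter the most.

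The promoters of the members with the widest spread on the log2 scale are shown to give the sequence before their start sites. RefSeq windows (GRCm38.p6, 250 bases before to 50 after each start) were given for 8 of the 10 genes, and the 250 bases before 1 start are printed for Gpam (chr19:55127239-55127488, minus strand), Pnpla3 (chr15:84167566-84167815, plus strand) and Lpin1 (chr12:16610967-16611216, minus strand). Capitals mark matches to a sterol regulatory element core (TCACNCCA) and to a CCAAT box (CCAAT, or ATTGG when read on the other strand).
Gpam: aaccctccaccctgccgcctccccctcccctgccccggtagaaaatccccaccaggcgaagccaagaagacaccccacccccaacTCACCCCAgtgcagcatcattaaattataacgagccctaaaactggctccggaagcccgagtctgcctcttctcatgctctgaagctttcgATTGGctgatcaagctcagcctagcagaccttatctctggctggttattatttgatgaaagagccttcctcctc
Pnpla3: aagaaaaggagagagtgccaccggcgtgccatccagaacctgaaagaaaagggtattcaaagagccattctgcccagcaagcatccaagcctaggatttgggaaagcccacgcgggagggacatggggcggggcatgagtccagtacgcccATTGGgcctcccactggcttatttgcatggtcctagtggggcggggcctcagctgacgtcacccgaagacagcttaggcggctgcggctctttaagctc
Lpin1: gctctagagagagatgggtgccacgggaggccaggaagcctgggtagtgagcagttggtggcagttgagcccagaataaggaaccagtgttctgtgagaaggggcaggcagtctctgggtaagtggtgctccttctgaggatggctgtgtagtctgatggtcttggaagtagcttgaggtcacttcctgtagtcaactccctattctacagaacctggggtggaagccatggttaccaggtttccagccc
In the Gpam window the TCACNCCA match began 165 bases before the start and the ATTGG match 74 bases before it. A further RefSeq start of Gpam (window chr19:55099428-55099727) held no match to any motif searched. The Pnpla3 window held ATTGG 99 bases before the start, and the Lpin1 window held no match to any motif searched. Both strands were searched for these motifs and for an E-box (CACGTG), a longer sterol element (TCACNCCAC) and a glucocorticoid response element, and no 2 of the matches printed here overlap. The core was searched after the longer sterol element, which contains it, had given no match in the members. Of 32851 RefSeq windows, 4.36% held TCACNCCA, 1.24% held TCACNCCAC, 37.4% held CCAAT, 7.15% held CACGTG and 0.00913% held the glucocorticoid response element, so a CCAAT match is common and none of these matches is evidence of binding.

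Gpam (ENSMUSG00000024978.10, chr19:55067268-55127238, minus strand, GRCm38) encodes the mitochondrial GPAT that acylates glycerol 3-phosphate. Its level was 104, 157, 75.4, 46.5 and 43.6 CPM in FSH mice 1, 2, 3, 4 and 6, and 40.3, 75.6, 29.9, 16.2, 19.8 and 75.7 CPM in saline mice 1 to 6. FSH mice 1 and 2 lay above every saline liver, whereas saline mice 2 and 6 lay among the FSH livers. The means were 85.4 ± 47.0 (SD, n = 5) and 42.9 ± 26.7 CPM (SD, n = 6). The log2 difference was 1.06 (SE 0.41, 95% interval 0.17 to 1.94), with an adjusted p of 0.122 (limma) and a two-sided exact permutation p of 0.0801. An antisense gene, AC110206.1, overlaps Gpam on the other strand, and whether the counting used strand is not stated.

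Agpat2 (chr2:26593057-26604417, minus strand), the AGPAT whose loss causes lipodystrophy, had 194, 231, 214, 192 and 229 CPM in the FSH livers. The saline livers ran from 197 to 288 CPM with a median of 266, and 5 of 6 lay above every FSH liver. Saline mouse 5 was the exception. The log2 difference was -0.26 (SE 0.10, 95% interval -0.48 to -0.041), with an adjusted p of 0.126 (limma) and an exact permutation p of 0.0368. Without saline mouse 5 it was -0.34 with an adjusted p of 0.0295, so that 1 library decided on which side of the threshold Agpat2 fell. Agpat2 overlaps Egfl7, a gene of endothelial cells, on the other strand.

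Agpat3 (chr10:78269178-78352489, minus strand), a further lysophosphatidate acyltransferase, had 191, 233, 161, 192 and 201 CPM with FSH. The saline livers held 202 to 249.5 CPM with a median of 219.9. Of the FSH livers, 4 of 5 lay below every saline liver and FSH mouse 2 lay among them. This gave a log2 difference of -0.20 (SE 0.10, 95% interval -0.40 to 0.0097), with an adjusted p of 0.222 (limma) and an exact permutation p of 0.0671. Without FSH mouse 3 it was -0.13. On the same strand Agpat3 overlaps the microRNA gene Mir7659, and on the other strand it overlaps Gm40709, Gm47992 and n-R5s77.

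The lipins differed from each other in level and in spread. Lpin1 (chr12:16535669-16610966, minus strand) encodes lipin 1, which is both a phosphatidate phosphatase and a coactivator of fatty acid oxidation genes. It stood at 89.3, 83.9, 103, 122 and 229 CPM in the FSH livers and at 380.1, 594, 129, 389.6, 89.6 and 117 CPM in saline mice 1 to 6. Saline mice 1, 2 and 4 were above every FSH liver, and saline mice 3, 5 and 6 were within the FSH range. The means were 126 ± 59.9 with FSH (SD, n = 5) and 283 ± 203 CPM with saline (SD, n = 6). On the log2 scale Lpin1 differed by -0.93 (SE 0.44, 95% interval -1.87 to 0.022), with an adjusted p of 0.210 (limma) and an exact permutation p of 0.128.

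Lpin2 (chr17:71182560-71249817, plus strand), the other main liver lipin, had 192, 276, 181, 212 and 175 CPM with FSH. With saline it had 158 to 411 CPM and a median of 191, and saline mouse 2 alone lay above every FSH liver. The log2 difference was -0.10 (SE 0.21, 95% interval -0.55 to 0.36), with an adjusted p of 0.825 (limma). Without saline mouse 2 it was 0.082, so no direction can be given for Lpin2. The noncoding gene Gm26561 overlaps Lpin2 on the same strand.

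Lpin3 (chr2:160880670-160906002, plus strand) was the only member whose groups did not overlap, a separation with FSH above that 3.95% of all genes tested showed (6.67% in either direction). It had 3.62, 3.32, 2.32, 2.33 and 2.10 CPM in the FSH livers against 1.99, 1.96, 2.10, 1.98, 1.67 and 1.49 CPM with saline. The gap was narrow, because FSH mouse 6 and saline mouse 3 both rounded to 2.10 CPM, and the level rested on 18 to 72 reads a library. The log2 difference was 0.43 (SE 0.15, 95% interval 0.11 to 0.76) with an adjusted p of 0.0858 (limma). The exact permutation p was 0.00216, the smallest that the splits of 11 livers into 5 and 6 allow. Without FSH mouse 6 the difference was 0.51 with an adjusted p of 0.0495. The antisense gene Gm16751 overlaps Lpin3.

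Per kilobase of exon, Lpin1 and Lpin2 made up nearly all lipin transcript and Lpin3 at most 3.78% in any liver. The share of Lpin1 was 27.0% to 61.5% in the FSH livers (median 41.0%) and 40.9% to 68.9% in the saline livers (median 55.7%). Lpin2 held 37.0% to 70.2% with FSH (median 56.8%) and 30.1% to 57.1% with saline (median 42.8%), so both shares overlapped between groups. The summed lipin level was 25.9 to 38.6 CPM per kb with FSH and 22.7 to 95.6 CPM per kb with saline. The high saline sums came from mice 1, 2 and 4, the mice with high Lpin1.

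**Figure D2:**
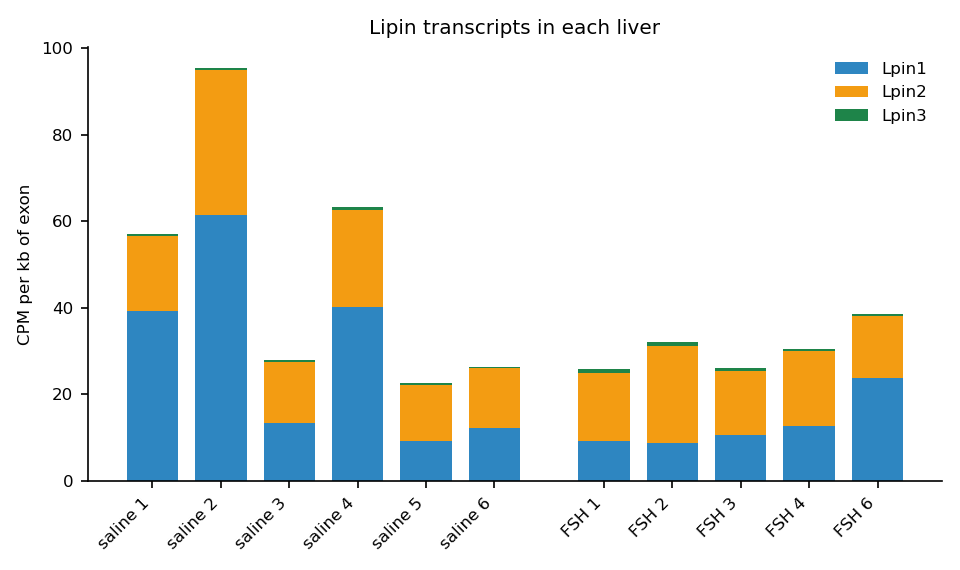
Stacked bars give Lpin1, Lpin2 and Lpin3 in CPM per kb of exon (linear axis from 0) for each of the 11 livers. Saline mice 1, 2 and 4 reach 57.1, 95.6 and 63.3 CPM per kb in total, and all other livers lie at or below 38.6 CPM per kb.

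Dgat1 and Dgat2 catalyse the last acylation and are unrelated in sequence. Dgat2 (chr7:99153658-99182719, minus strand) had 559, 530.2, 674, 667 and 760.3 CPM in the FSH livers and 546 to 725 CPM with saline, with a median of 666. The FSH livers held both the lowest and the highest value. FSH livers differed from saline livers by -0.052 on the log2 scale (SE 0.10, 95% interval -0.28 to 0.17), with an adjusted p of 0.813 (limma). Without FSH mouse 2 it was 0.012, so no direction can be given for Dgat2.

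Dgat1 (chr15:76502015-76511953, minus strand) had 24.7, 25.6, 22.5, 26.5 and 21.1 CPM with FSH and 17.5 to 27.0 CPM with saline, with a median of 23.1. The saline livers spanned the FSH range on both sides. Its difference was 0.13 on the log2 scale (SE 0.12, 95% interval -0.11 to 0.38), with an adjusted p of 0.529 (limma), and it was 0.082 without saline mouse 5 and 0.073 without saline mouse 6. The intervals of both DGAT genes leave out a change of 1 on the log2 scale in either direction, but not the smaller changes within them. The level of Dgat2 was 20.5 to 35.7 times that of Dgat1 per kb with FSH (median 25.0) and 25.1 to 37.6 times with saline (median 29.0).

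Mogat1 (chr1:78510991-78538173, plus strand), which acylates monoacylglycerol, was rare, with 13 to 49 reads a library. The FSH livers had 2.46, 2.36, 2.10, 1.42 and 1.14 CPM and the saline livers 1.62 to 3.40 CPM with a median of 2.87. Saline mice 2 and 6 lay within the FSH range, and the other 4 saline livers lay above it. On the log2 scale the groups differed by -0.39 (SE 0.21, 95% interval -0.84 to 0.065), with an adjusted p of 0.278 (limma). The coding gene BC035947 overlaps Mogat1 on the other strand.

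Pnpla3 (ENSMUSG00000041653.4, chr15:84167837-84187236, plus strand) had the largest difference of the 10 genes. Its protein, adiponutrin, sits on lipid droplets, and the gene is a known SREBP-1c target that rises on feeding. The FSH livers had 52.0, 40.6, 46.2, 24.9 and 11.4 CPM. Saline mice 1 and 2 had 34.4 and 29.2 CPM, and saline mice 3 to 6 had 6.91, 2.43, 4.63 and 7.40 CPM. FSH mice 1, 2 and 3 lay above every saline liver, and 4 of 6 saline livers lay below every FSH liver. On the same strand Pnpla3 overlaps the processed transcript Gm49513 and the microRNA gene Mir6392. The means were 35.0 ± 16.6 with FSH (SD, n = 5) and 14.2 ± 13.9 CPM with saline (SD, n = 6).

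The log2 difference for Pnpla3 was 1.67 (SE 0.58, 95% interval 0.44 to 2.90), with an adjusted p of 0.0794 (limma) and an exact permutation p of 0.0519. Of the members, Pnpla3 and Gpam exceeded 1 on the log2 scale, as did 2.05% of all genes tested in either direction. Single livers decided the call for Pnpla3. Without saline mouse 1 the difference was 2.04 (adjusted p = 0.0271), without saline mouse 2 it was 1.99 (adjusted p = 0.0346), and without FSH mouse 6 it was 2.02 (adjusted p = 0.0369). With edgeR's quasi-likelihood test it was 1.29 with an adjusted p of 0.160.

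**Figure D3:**
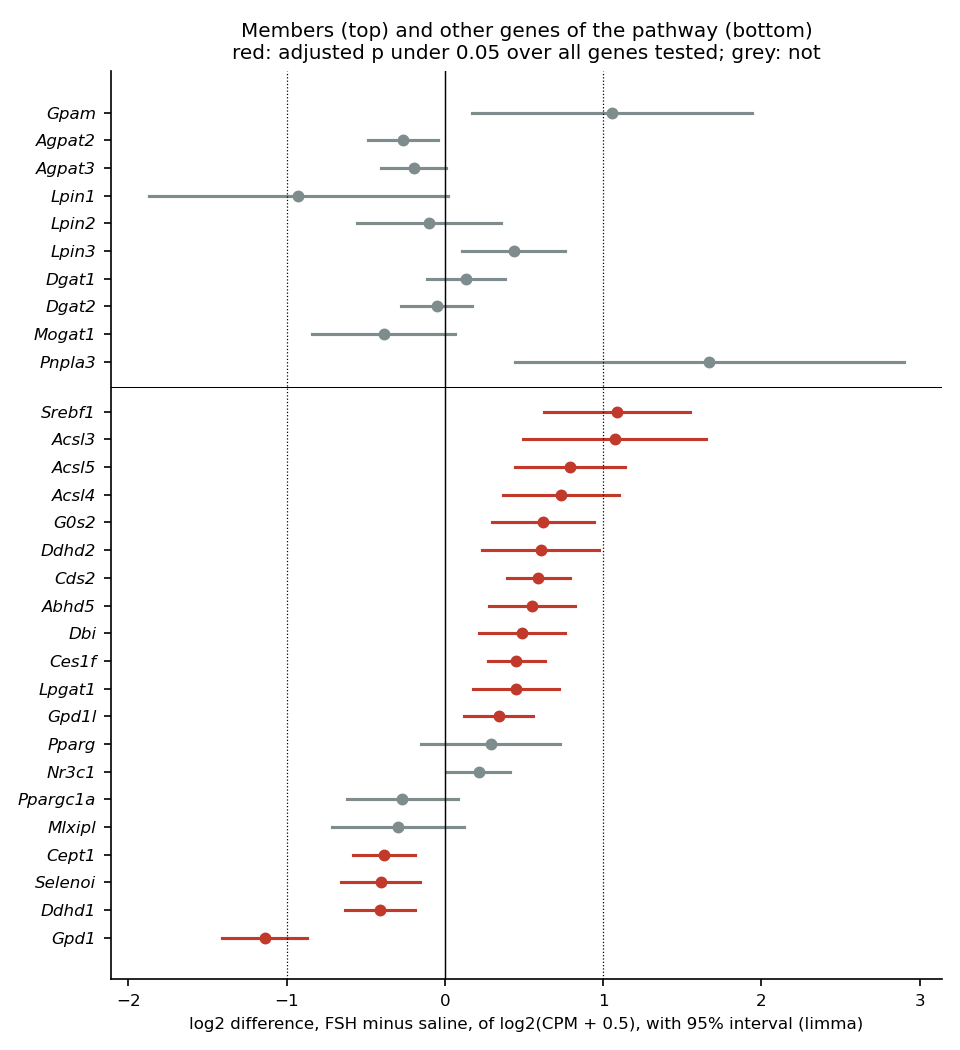
Points are log2 differences, FSH minus saline, with 95% intervals from limma, for the 10 members (above the line) and 20 other genes of the pathway (below it). Dotted lines mark -1 and 1. All 10 members are grey, not past an adjusted p of 0.05, with Pnpla3 at 1.67 and Lpin1 at -0.93 as the extremes, whereas Gpd1 at -1.14 and Srebf1 at 1.09 are red.

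The members differed widely in their spread between livers of the same group. The SD within groups on the log2 scale was 1.21 for Pnpla3, 0.93 for Lpin1 and 0.87 for Gpam, and only 0.385%, 0.817% and 0.919% of all genes tested had a larger one. It was 0.43 for Lpin2 and 0.38 for Mogat1. For Lpin3, Dgat1, Agpat2, Dgat2 and Agpat3 it was between 0.16 and 0.23, where the median over all genes tested was 0.22. Among saline livers alone, the highest value was 14.1 times the lowest for Pnpla3, 6.63 times for Lpin1 and 4.67 times for Gpam. Among FSH livers these ratios were 4.56, 2.73 and 3.60. Whether the spread itself differed between groups was not tested.

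**Figure D4:**
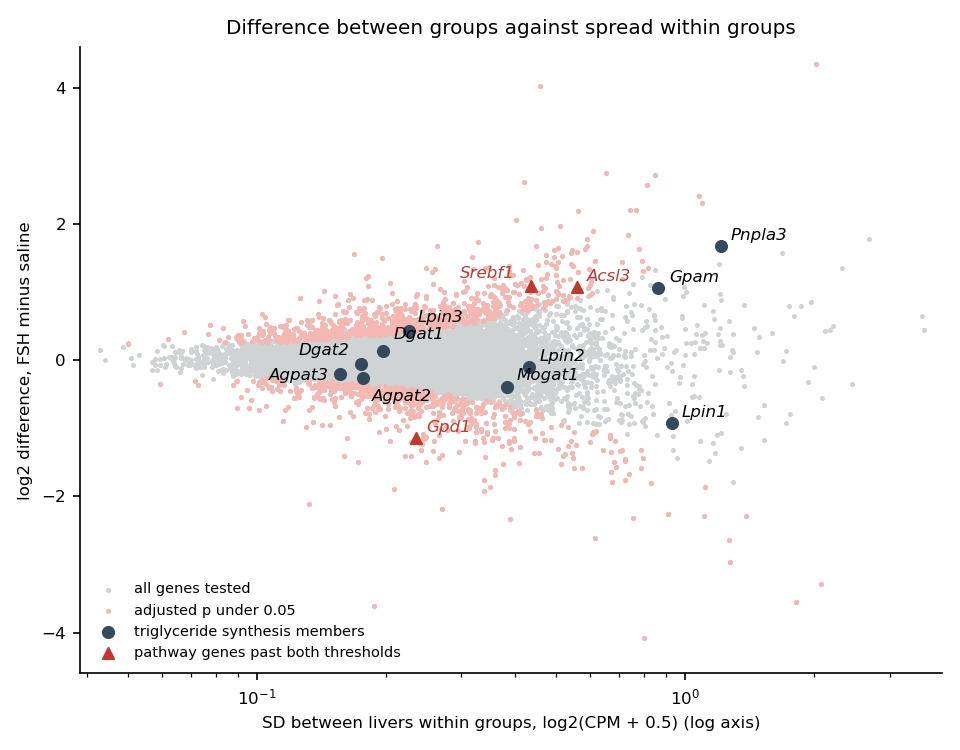
Each point is 1 of 12733 genes, with the SD within groups of log2(CPM + 0.5) on the x axis (log axis) and the log2 difference, FSH minus saline, on the y axis. Pnpla3, Gpam and Lpin1 lie at the right, at SDs of 1.21, 0.87 and 0.93, while Gpd1, with a difference of -1.14, lies at a smaller SD among genes past an adjusted p of 0.05 (pink).

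Levels were compared between members per kilobase of exon. In the saline livers the order was Dgat2 (213 ± 19.3 CPM per kb, SD, n = 6), Agpat2 (120.1 ± 16.4), Lpin1 (29.3 ± 21.0), Agpat3 (28.7 ± 2.48), Lpin2 (19.0 ± 7.93), Pnpla3 (9.14 ± 8.95), Dgat1 (7.22 ± 1.18), Gpam (6.44 ± 4.01), Mogat1 (1.69 ± 0.499) and Lpin3 (0.505 ± 0.0631). Dgat2 was above Agpat2, and Agpat2 above all below it, in 6 of 6 livers with no overlap of the ranges. From Lpin1 down to Gpam, each neighbour's range overlapped the next. In the FSH livers Dgat2 (207 ± 30.3, n = 5) and Agpat2 (99.5 ± 8.68) again led without overlap. Pnpla3, at 22.6 ± 10.7, then stood between Agpat3 (25.1 ± 3.30) and Lpin2 (16.9 ± 3.34), and Lpin1 (13.0 ± 6.20) stood beside Gpam (12.8 ± 7.05), with all of these ranges overlapping their neighbours. Dgat1 followed at 7.88 ± 0.724, Mogat1 at 1.22 ± 0.376 and Lpin3 at 0.741 ± 0.184 CPM per kb.

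Relations between the members were computed over 11 livers after subtracting group means, for the 55 pairs of the 10 genes and Srebf1. Lpin1 and Dgat2 had the clearest relation, with Pearson's r = 0.70 (exact permutation p = 0.000475, adjusted p = 0.0261) and Spearman's rho = 0.82 (exact permutation p = 0.000185, adjusted p = 0.0102). Without the livers farthest from the median of Lpin1, saline 2 and FSH 6, r was 0.53. Lpin3 and Mogat1 had r = 0.71 (exact permutation p = 0.0300, adjusted p = 0.481) and rho = 0.85 (exact permutation p = 0.000972, adjusted p = 0.0267), with r = 0.58 without FSH 1 and FSH 6, and both genes are at low read counts. Gpam and Pnpla3 had r = 0.70 and rho = 0.69, and Pnpla3 and Srebf1 had r = 0.71 and rho = 0.76. Neither of these passed the adjustment, with exact permutation p of 0.0350 and 0.0442 (adjusted 0.481 and 0.517) for the first and 0.0543 and 0.0202 (adjusted 0.490 and 0.371) for the second. Lpin3 and Dgat1 had r = 0.60 (exact permutation p = 0.0267, adjusted p = 0.481) and rho = 0.50. Agpat2 and Lpin1 had r = 0.67 (exact permutation p = 0.0498, adjusted p = 0.490) and rho = 0.55, and these pairs did not pass either.

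The genes whose pattern was most like those of the widely varying members are given for description, having been chosen after the members' values were seen. Over the 11 livers, Pnpla3 was closest to Tiprl (r = 0.93) and Hmgb3 (r = 0.92). Gpam was closest to Vkorc1l1 (r = 0.97), Opa1 (r = 0.95) and Pm20d1 (r = 0.95). Lpin1 was closest to Arrdc2 (r = 0.96), Slc29a1 (r = 0.96) and Foxo1 (r = 0.94). These are the highest of many correlations over few livers. After subtracting group means, r was 0.92 for Tiprl and 0.88 for Hmgb3 with Pnpla3. It was 0.98 for Vkorc1l1, 0.96 for Opa1 and 0.94 for Pm20d1 with Gpam, and 0.95 for Arrdc2, 0.95 for Slc29a1 and 0.92 for Foxo1 with Lpin1.

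Some genes around the route passed the test. Of 72 tested genes in 6 lists of other glycerolipid genes, 16 (22.2%) passed an adjusted p of 0.05, where 10.6% of all genes did. The lists were chosen with earlier results of these data known. This share and those of the single lists below are therefore descriptions, and no list was tested as a set. Of the 16, 12 were higher with FSH and 4 lower, and of all genes tested 6.19% passed as higher and 4.41% as lower. Of these, 7 passed under each of the 22 alternatives tried, namely Gpd1, Srebf1, Cds2, Ces1f, Abhd5, Acsl5 and Acsl4. The count fell to 7 without FSH mouse 1 and to 9 without FSH mouse 3. Acsl3, Cept1, Selenoi, G0s2, Lpgat1, Dbi, Gpd1l, Ddhd1 and Ddhd2 missed the threshold without FSH mouse 1, with adjusted p between 0.0529 and 0.120 (limma). Over the 22 alternatives, Gpd1l missed it in 12, Selenoi in 11, Lpgat1 in 10, Ddhd2 in 9, Dbi in 5, Acsl3, G0s2 and Ddhd1 in 2 each and Cept1 in 1.

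Among genes that supply substrate, 5 of 12 passed the test as higher and 1 as lower, against 6.19% and 4.41% of all genes tested. Gpd1, which makes glycerol 3-phosphate from dihydroxyacetone phosphate, fell by 1.14 on the log2 scale (SE 0.13, adjusted p = 6.1e-05, limma). Its FSH livers had 133, 203, 149, 127 and 161 CPM and its saline livers 262 to 389 CPM with a median of 347, without overlap. Of the 7 acyl-CoA synthetase genes tested in this list, which activate fatty acids, Acsl3, Acsl4 and Acsl5 rose, whereas Acsl1, Acsm1, Acsm3 and Acsm5 differed by between -0.12 and 0.026 and did not pass. Acsl5 was 678 ± 159 against 387 ± 69.9 CPM (log2 difference 0.79, adjusted p = 0.0061), Acsl4 was 70.2 ± 16.8 against 41.5 ± 7.45 CPM (0.73, adjusted p = 0.0134) and Acsl3 was 68.1 ± 17.6 against 33.2 ± 10.8 CPM (1.07, adjusted p = 0.0210, and 0.0570 without FSH mouse 3). Dbi, the acyl-CoA binding protein, rose by 0.49 (adjusted p = 0.0243), and Gpd1l, a relative of Gpd1, by 0.34 (adjusted p = 0.0473).

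Among the enzymes that draw phosphatidate or diacylglycerol away from triglyceride, 1 of 14 passed the test as higher and 2 as lower. Of all genes tested, 6.19% passed as higher and 4.41% as lower. Cds2, which turns phosphatidate into CDP-diacylglycerol, had 94.4 to 110.5 CPM in the FSH livers and 58.3 to 76.8 CPM in the saline livers, without overlap (log2 difference 0.59, SE 0.094, adjusted p = 0.0012, limma). Cept1, which makes phosphatidylcholine and phosphatidylethanolamine from diacylglycerol, had 53.7 to 66.3 against 66.7 to 91.2 CPM, also without overlap (-0.38, SE 0.092, adjusted p = 0.0157). Selenoi, which makes phosphatidylethanolamine, differed by -0.41 (adjusted p = 0.0398). Of 12 other glycerolipid synthesis enzymes, among them the remaining GPAT and AGPAT genes, only Lpgat1 passed (0.45, adjusted p = 0.0358), and 3 had an unadjusted limma p under 0.05, shares close to the 10.6% and 25.1% of all genes. None of 7 lipin phosphatase and lipid droplet assembly factors passed with limma, voom or edgeR, and 1 of them had an unadjusted limma p under 0.05.

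On the side of triglyceride breakdown, 4 of 13 genes passed the test as higher and 1 as lower, against 6.19% and 4.41% of all genes tested. Ces1f, a carboxylesterase, had 449 to 563 CPM with FSH and 340.2 to 409 CPM with saline, without overlap (log2 difference 0.45, SE 0.085, adjusted p = 0.0036, limma). Abhd5, the coactivator of adipose triglyceride lipase, rose by 0.55 (SE 0.13, adjusted p = 0.0122). G0s2, the inhibitor of the same lipase, rose by 0.62 (SE 0.15, adjusted p = 0.0173). The phospholipase genes Ddhd2 and Ddhd1 differed by 0.61 (adjusted p = 0.0367) and -0.41 (adjusted p = 0.0218).

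Of 14 transcription factors and coactivators of the pathway, Srebf1 alone passed, a share no larger than the 10.6% of all genes tested. The FSH livers had 479, 448, 471, 419 and 413 CPM, and the saline livers 345, 219.9, 301, 121, 147 and 206 CPM. Every FSH liver lay above every saline liver, and the log2 difference was 1.09 (SE 0.22, 95% interval 0.63 to 1.55, adjusted p = 0.0047, limma). Mlxipl, which encodes ChREBP, differed by -0.30 (adjusted p = 0.385, and -0.11 without saline mouse 4) and Pparg by 0.29 (adjusted p = 0.422, with 0.15 without saline mouse 4 and 0.44 without saline mouse 5). Ppargc1a, a coactivator partner of lipin 1, differed by -0.27 (adjusted p = 0.337, and -0.14 without saline mouse 2), and Nr3c1, the glucocorticoid receptor, by 0.21 (adjusted p = 0.166).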

How the data were processed

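Liver RNA was sequenced from 11 mice, and the authors deposited 1 table of CPM (reads per gene scaled to 1000000 per library) over 36788 Ensembl identifiers. The submitters' processing notes name FastQC 0.11.2, cutadapt, Trim Galore 0.3.3, STAR, RSEM and the build mm10. Which tool made the counts, and the use of strand, are not given in the sources used here. All values (100%) came out as whole reads within 0.1 read, giving 10801891 to 19909327 reads a library, and the precision of a low gene follows its reads. Identifiers were matched to symbols through a reference table, which left 1233 unnamed. Gene positions, overlapping genes and exon lengths came from GENCODE M21 (GRCm38, the same assembly as mm10).

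The 12733 genes that averaged 0.5 CPM or more entered a limma fit (version 3.58.1, R 4.3.3) on log2(CPM + 0.5) (eBayes with an intensity trend, Benjamini-Hochberg adjustment over all genes tested), with thresholds of an adjusted p of 0.05 and an absolute log2 difference of 1. Fold differences on this scale understate those of low genes. Groups came from the sample labels. For each single gene an exact permutation test was added (two-sided, every split of 11 livers into 5 and 6), whose smallest p is 0.00216. The p-values set the difference between groups against the spread between these livers. The alternatives were pseudocounts of 0.1 and 1, no filter, a filter at 1 CPM, median-of-ratios and quantile scaling, no trend, array weights, a replicate block, voom and edgeR 4.0.16 on recovered reads, and leaving out each library. The fits were tested on simulated data.

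All 10 members, Srebf1, Mlxipl, Pparg, Ppargc1a and Nr3c1 were to be named whatever their call, and of each pathway list the genes past both thresholds and otherwise up to 3 with an adjusted p under 0.05. As the lists held few calls, all were named, so Dbi, Gpd1l, Acsl4, Acsl5, Ddhd1 and Ddhd2 were added after their values were seen. The members and lists were chosen with earlier results of these data known.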

Additional observations from a re-analysis of the deposited data

Results flagged for a closer look

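One value stood apart from its group. Dgat2 in saline mouse 5 was 546.2 CPM, below the 662 to 725 CPM of the other 5 saline livers, by a gap larger than Dixon's 95% limit allows for 6 values. Of 20 groups of values examined (10 genes in 2 groups), 1 was so marked, and chance marks about 1 in 20.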

How the results depend on the processing

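Of 220 repeats of the members' results under the 22 alternatives, 210 kept both the direction and the side of the threshold, 8 passed the threshold that the reported value missed, and 2 reversed, Lpin2 at 0.082 without saline mouse 2 (range -0.21 to 0.082 when each library was left out) and Dgat2 at 0.012 without FSH mouse 2 (range -0.12 to 0.012). The count of members at an adjusted p under 0.05 was 2 with array weights (Agpat2 -0.32, Pnpla3 1.73) and ranged from 0 to 2 when each library was left out. The count past both thresholds was 1 with array weights and ranged from 0 to 1. The cause was not tested. The count over the other glycerolipid genes ranged from 7 to 17 and that over all genes from 803 to 1659 when each library was left out, against 16 and 1350. The lowest count of all genes came without FSH mouse 1. The edgeR test, which called 1435 genes at an adjusted p under 0.05, was chosen after seeing the data.

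The replicate numbers are shared between groups, but the deviations of same-numbered livers correlated at 0.065, 0.36, 0.019, 0.14 and -0.066, so the numbers were not taken to pair the mice. The number was also used as a replicate block (5 pairs, saline mouse 5 left out). Pnpla3 alone then passed the adjusted p, and it also passed both thresholds (1.48, adjusted p = 0.0366, limma). Of the FSH livers, only mouse 2 correlated best with the saline liver of its own number.

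Lpin3 and Mogat1 rest on few reads, and the call for Pnpla3 changes without saline mouse 1, saline mouse 2 or FSH mouse 6 and under array weights and the replicate block. Reads shared with overlapping genes on the other strand cannot be told apart where strand was not used. Those of the same-strand genes over Pnpla3, Lpin2 and Agpat3 cannot be told apart by any use of strand.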
